A study of Mus musculus with 7 samples.

Results

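The macrophages of the tumors were 950 cells, found among 81779 barcodes (1.16%) of 4 single-cell RNA libraries of mouse liver, NEJ634, NEJ709, NEJ723 and NEJ687. A barcode counted as a macrophage when it held more than 1000 UMIs (unique molecular identifiers, each standing for 1 captured RNA molecule), when at most 20% of them were mitochondrial, and when C1qa, C1qb and C1qc together had at least 10 UMIs and made up at least 1% of its base, meaning the UMIs of all genes other than the mitochondrial and haemoglobin genes. The C1q genes therefore chose the cells, and their levels are given only as a description.

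The series holds 7 liver libraries from work on the ABC-Myc mouse, in which Cre under the albumin promoter (Alb-Cre), active in the hepatocyte lineage, removes a stop cassette in front of a human MYC transgene driven by CAG, on C57BL/6J. The tissue was digested with collagenase IV and captured with a 10X Genomics 3' kit. The study also took healthy livers, from littermates that lacked the Cre, the MYC transgene or both, but the labels call all 7 libraries a hepatoblastoma mouse model, place none in a group and give no genotype for any of them. The libraries named above are called tumors by the selection rule and by name in the text of the study, though not in the labels. That text gives 4 tumors and 3 healthy livers for the single-cell work, and does not name the healthy ones. NEJ638, NEJ654 and NEJ677 are called the other libraries (genotype not given in the labels), and the tissue named in the description of NEJ709 is that of NEJ634. Ages are not given in the sources used here, each library is 1 sample, and values are set side by side without a test, with exact 95% intervals that cover counting error only.

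Macrophages clear dying cells, debris and aged red cells. Those resident in the liver, the Kupffer cells, sit in the sinusoids and are known by the lectin Clec4f, the complement receptor Vsig4, the phosphatidylserine receptor Timd4 and the scavenger receptor Marco, whereas macrophages that arise from monocytes in injured, fatty or tumor tissue often carry Trem2, Gpnmb and Spp1. C1q, built from the products of C1qa, C1qb and C1qc, starts the classical complement cascade, and macrophages are its main source.

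The 3 C1q genes are neighbors on the minus strand of chromosome 4 (GRCm38), C1qb at 136880129 to 136886187, C1qc at 136889804 to 136893065 and C1qa at 136895917 to 136898803. Promoters (300 bases around the start of the gene, RefSeq, GRCm38.p6) are shown for 2 genes that chose the cells, for the Kupffer cell genes Marco and Cd5l, whose levels set 1 tumor apart, and for Trem2, which was higher in all 4 tumors. Capitals mark GAGGAA or, on the other strand, TTCCTC, a core bound by PU.1, the transcription factor on which macrophages depend.

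C1qb: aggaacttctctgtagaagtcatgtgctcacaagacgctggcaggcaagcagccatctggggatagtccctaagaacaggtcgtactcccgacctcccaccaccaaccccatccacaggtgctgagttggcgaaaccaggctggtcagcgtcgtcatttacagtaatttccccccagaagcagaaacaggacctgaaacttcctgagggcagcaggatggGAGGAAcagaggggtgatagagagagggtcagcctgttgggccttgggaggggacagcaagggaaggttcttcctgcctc
C1qc: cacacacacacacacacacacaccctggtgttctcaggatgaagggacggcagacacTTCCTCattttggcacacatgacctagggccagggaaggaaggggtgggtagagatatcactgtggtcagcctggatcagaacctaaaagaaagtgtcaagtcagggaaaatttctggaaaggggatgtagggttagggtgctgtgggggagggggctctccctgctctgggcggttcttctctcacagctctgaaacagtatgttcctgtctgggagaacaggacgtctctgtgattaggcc
Marco: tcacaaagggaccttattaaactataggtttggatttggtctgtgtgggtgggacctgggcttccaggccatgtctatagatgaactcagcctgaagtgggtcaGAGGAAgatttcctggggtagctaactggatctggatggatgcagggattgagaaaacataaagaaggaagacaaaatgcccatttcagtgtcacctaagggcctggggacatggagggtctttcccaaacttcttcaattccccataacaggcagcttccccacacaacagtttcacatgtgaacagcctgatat
Cd5l: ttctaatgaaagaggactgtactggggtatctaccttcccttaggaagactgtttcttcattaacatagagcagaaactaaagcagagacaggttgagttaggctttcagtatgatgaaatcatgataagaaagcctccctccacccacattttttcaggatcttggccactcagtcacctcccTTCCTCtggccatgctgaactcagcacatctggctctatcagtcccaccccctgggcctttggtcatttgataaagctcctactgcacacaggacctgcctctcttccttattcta
Trem2: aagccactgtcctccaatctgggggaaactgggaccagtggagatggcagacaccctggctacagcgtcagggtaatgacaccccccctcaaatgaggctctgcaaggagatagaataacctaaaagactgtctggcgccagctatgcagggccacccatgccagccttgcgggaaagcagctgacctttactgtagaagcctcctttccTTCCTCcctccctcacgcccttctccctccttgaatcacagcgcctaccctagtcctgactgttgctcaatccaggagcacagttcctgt

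These promoters lie at chr4:136886151-136886450 (C1qb), chr4:136892865-136893164 (C1qc) and chr1:120504975-120505274 (Marco) on the minus strand, and at chr3:87357631-87357930 (Cd5l) and chr17:48346151-48346450 (Trem2) on the plus strand. Each holds the motif 1 time. Of 16 promoters of macrophage genes looked up, 11 hold it, among them Fcna with 4 copies and Vsig4 with 2, whereas 28.3% of all 32851 listed promoters do. Clec4f, Timd4, Folr2, Gpnmb and Lyz2 have no match in this window.

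The tumors differed in how many macrophages they gave. The rule found 406 of 40660 (0.999%, 0.904 to 1.10%) in NEJ634, 27 of 21482 (0.126%, 0.0828 to 0.183%) in NEJ709, 234 of 12106 (1.93%, 1.70 to 2.19%) in NEJ723 and 283 of 7531 (3.76%, 3.34 to 4.21%) in NEJ687 (Clopper-Pearson intervals). At a limit of 0.5% C1q in place of 1% the counts were 1814, 55, 421 and 398 in NEJ634, NEJ709, NEJ723 and NEJ687, or 4.46%, 0.256%, 3.48% and 5.28%, so that NEJ634 passed NEJ723, and at 2% they were 6, 2, 22 and 81. At the limit of 1% NEJ638, NEJ654 and NEJ677 gave 153, 858 and 564 macrophages, or 2.40, 15.1 and 8.24% of their barcodes. The share moves with the number of other cells captured, and in NEJ709 19199 of 21482 barcodes passed the call for neutrophils, at least 5% S100a8 and S100a9. Ambient RNA of NEJ709 itself held these genes at 77621 CPM (UMIs per 1000000 base UMIs) and its other barcodes at 75797, so the call does not separate neutrophils from barcodes that hold ambient RNA.

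In the order NEJ634, NEJ709, NEJ723 and NEJ687, kept for all values of the tumors below, the median macrophage held 2479, 2391, 8632 and 2819 UMIs and 1150, 1072, 2411.5 and 1133 genes. NEJ723 cells were thus the deepest. In NEJ709, 5 cells held 59.7% of all macrophage UMIs, so its summed levels lean on few cells. Of the 950 cells, 340 lay between 1 and 1.2% C1q and 58 held 10 to 12 C1q UMIs. Outside, 2733 barcodes had 10 C1q UMIs or more but under 1%, and 10 had 5 to 9 UMIs at 1% or more. Next to the limit, Marco was at 3435 CPM in 199 cells inside and 3383 in 435 cells outside for NEJ634, 2686 CPM in 11 cells inside and 468 in 9 cells outside for NEJ709, 40.8 CPM in 81 cells inside and 81.4 in 92 cells outside for NEJ723, and 3218 CPM in 49 cells inside and 2054 in 45 cells outside for NEJ687 (CPM summed over cells). Of the macrophage barcodes, 27 also passed in another library, 2 of them as macrophages, and 41 cells were possible doublets, 36 of them in NEJ634.

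C1qa, which chose the cells, was at 4023, 3869, 4748 and 4837 CPM, given as a description only. The label was checked against genes the rule did not use. Lyz2, lysozyme, was at 4168, 5411, 7287.5 and 2439 CPM, and Tyrobp and Fcer1g, signaling adaptors of myeloid receptors, at 2583, 2814, 3506 and 3710.2 and at 2808, 2904, 3493 and 3311. Ambient levels were 1078, 2325, 873 and 1321 for Lyz2, 788, 1389.6, 597 and 1043 for Tyrobp and 579.6, 797, 597 and 581 for Fcer1g, lower than in the macrophages of each tumor. Csf1r, the receptor for the macrophage growth factor, stood at 702, 847, 466 and 796 CPM and Adgre1, which encodes F4/80, at 518, 549, 223 and 386 (ambient 197, 117, 43.7 and 55.0, and 81.1, 57.1, 0 and 29.5). The integrin Itgam varied most of this list, at 32.7, 56.8, 57.2 and 11.7, not above its ambient level in any tumor (104, 60.2, 58.2 and 28.5). In NEJ709 and NEJ723 it was close to ambient. Mmp12, a macrophage elastase and named marker, was at 182, 52.0, 26.8 and 84.4 CPM. Marco, also a named marker, was nearly missing from NEJ723, where the label rests on the general macrophage genes.

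Genes of other lineages were summed over marker lists. The 10 T and NK cell genes summed to 90.9, 4.73, 11.1 and 3.89 CPM, against 4943, 4739, 3964 and 8813 in T cells. The 8 B cell genes summed to 13.9 to 94.8 CPM, the 8 dendritic cell genes to 2.77 to 104 and the 10 mesenchymal genes to 19.4 to 66.2. The 14 neutrophil genes summed to 9929, 1149, 300.0 and 529.6 CPM in the macrophages, to 16999.6, 19729.7, 3535 and 12574 in T cells and to 18466, 100540, 22680.3 and 38874 in ambient RNA (barcodes of 10 to 100 UMIs). The 14 hepatoblast genes summed to 2687, 492, 762 and 969 CPM, against 20807, 6058, 7351 and 10083 in ambient RNA. The 10 endothelial genes summed to 337, 137, 102 and 382 CPM in the tumors and to 819, 2732 and 3283 in the macrophages of the other libraries, and 10 of the 10 were below every other library in all 4 tumors (all genes 16.3%). The 7 megakaryocyte genes, which include Pf4, a gene that macrophages also express, summed to 304, 1164, 1861 and 312 CPM (ambient 81.1, 147, 189 and 230.2), and the 6 basophil and mast cell genes to 0 to 18.96. Haemoglobin genes, left out of the base, summed to 24906, 9597, 35465.5 and 31676 CPM, against 27957, 68294, 60014 and 29953 in T cells and 74408, 471592, 162023 and 297403 in ambient RNA. The ambient share of macrophage UMIs was estimated at 22.3%, 11.6%, 32.5% and 8.99% from Cd3 and Cd79 genes, highest in NEJ723, and at 72.0%, 1.35%, 2.58% and 1.32% when Camp was added, highest in NEJ634. The part of these lineages in the results below was not tested. With 1 library for each tumor, a difference between tumors cannot be told apart from one between library preparations.

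Genes at 100 CPM or more in each tumor were ranked by the ratio of macrophages to the other barcodes of their own libraries. The C1q genes, which chose the cells, were left out. The lowest of the 4 ratios is given, without a test, since the cells were chosen from the same counts. The limit leaves out Kupffer cell genes low in NEJ723, such as Clec4f (64.6 CPM there) and Folr2 (20.3 CPM there). Pltp, a phospholipid transfer protein, led with a ratio of 9.77 or more in each tumor. It was followed by Fcna, a ficolin that binds bacterial sugars (9.39), Trem2, a lipid-sensing receptor (9.28), Vsig4 (8.82), Cd5l, a secreted scavenger protein (8.31), and Fcgr1, the high-affinity IgG receptor (8.28). Next came Il18bp, the decoy of interleukin 18 (7.79), Adgre1 (7.78), Axl, a receptor kinase that recognizes dying cells (7.70), Ms4a7 (7.62), Abcc3 (7.61), Cfp, which encodes properdin (7.44), Wfdc17 (7.23), the amino acid carrier Slc7a8 (6.91) and the lysosomal glycoprotein Cd68 (6.90). For all of these but Pltp the lowest ratio was that of NEJ634, whose other barcodes include 2123 with 10 C1q UMIs or more. Ratios elsewhere were higher, such as 14.2, 51.3 and 65.9 for Vsig4 in NEJ709, NEJ723 and NEJ687.

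Kupffer cell genes set NEJ723 apart. Marco was at 4328 CPM (95% interval 4225 to 4434) in NEJ634, 2294 (2094 to 2508) in NEJ709, 68.8 (58.2 to 80.7) in NEJ723 and 4174 (4080.5 to 4269.8) in NEJ687. The other libraries had 1481, 825 and 703, so 3 tumors were above all of them and NEJ723 below. At a limit of 2% C1q, which left 6, 2, 22 and 81 cells, Marco was at 7084.5, 342, 353 and 4628 CPM, and NEJ723 was no longer the lowest for Marco, for Vsig4 (894, 2393, 910.3 and 1799) or for Timd4 (447, 0, 156 and 333), but was so for Clec4f (1532, 1709, 607 and 1951), Cd5l (5808, 4786, 1591 and 7357) and Folr2 (383, 342, 98.4 and 312). Clec4f was at 1517, 1334, 64.6 and 1140.3 CPM in the tumors and at 3723, 3914 and 3919 in the other libraries, with every tumor below. Cd5l was at 5649, 3547, 662 and 5825 CPM, against 3947, 3907 and 3719. NEJ723 was again lowest, while NEJ634 and NEJ687 lay above all other libraries.

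Vsig4 was at 1023, 974, 121 and 1247 CPM, Timd4 at 302, 232, 31.4 and 231, and Folr2, a folate receptor, at 358, 194, 20.3 and 212. In the other libraries these genes stood at 1309.8 to 1539, 427 to 543 and 867 to 1221 CPM, above each tumor. Of 15 Kupffer cell genes, 14 reached the level for comparison, and 9 of these were at least 2-fold lower in NEJ723 than in each other tumor, where 1.96% of all 3513 genes were (69 genes). They were Clec4f, Vsig4, Timd4, Cd5l, Marco, Folr2, the lipid-sensing nuclear receptor Nr1h3, the regulator Id3 and Hpgd, which breaks down prostaglandins. In NEJ634, NEJ709 and NEJ687 the same count was 0, at 0.0569%, 0.171% and 0.171% of all genes. In each count for a single tumor, tumors on the higher side also stood at 2 times their ambient level or more. The median log2 ratio of NEJ723 to the median of the other 3 tumors was -1.88 over the Kupffer cell genes and -0.11 over all genes.

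**Figure D1:**
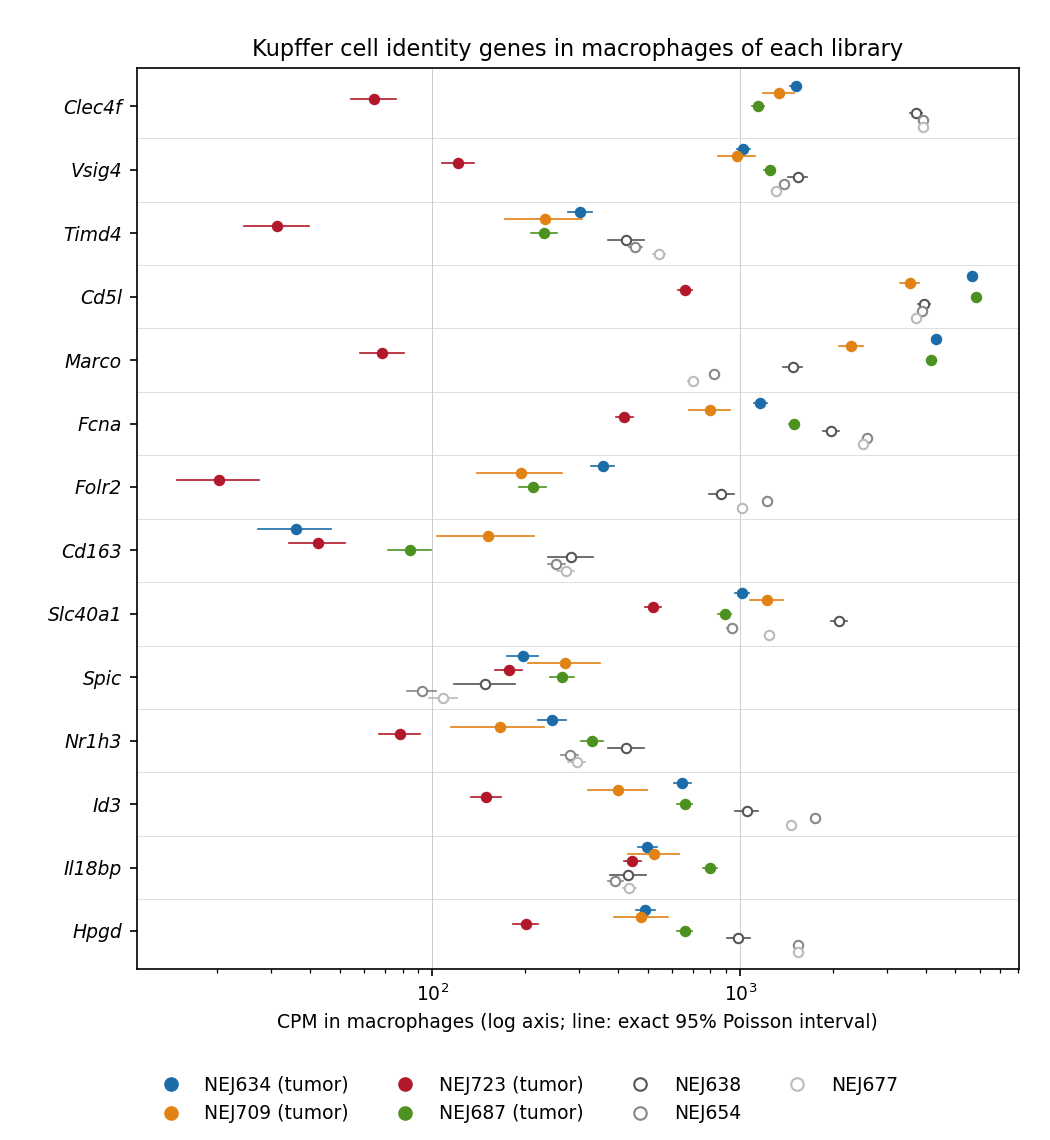
Levels of Kupffer cell genes in the macrophages of each library, in CPM on a log axis, with exact 95% Poisson intervals as lines. Filled points are the 4 tumors and open points the other libraries. NEJ723 lies far to the left of the other tumors for Marco (68.8 CPM), Clec4f (64.6) and Folr2 (20.3), and near them for Spic (177) and Il18bp (446).

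NEJ723 was also the lowest tumor for Spic, Slc40a1 and Fcna, whereas Cd163 was lowest in NEJ634. Spic, a transcription factor of macrophages that handle heme, was at 196, 269.6, 177 and 264 CPM and at 92.4 to 149 in the other libraries, below each tumor. Slc40a1, the iron exporter ferroportin, was at 1014, 1220.3, 520.2 and 891, against 937 to 2087. Fcna was at 1163, 795, 420.5 and 1495, against 1975 to 2586, and Cd163, which takes up haemoglobin bound to haptoglobin, at 36.0, 151, 42.5 and 84.4, against 253 to 282, with every tumor below for both. Over the 14 genes, 8 were below and 2 above every other library in all 4 tumors, where 16.3% and 9.15% of 4228 genes were.

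Further genes with a wide gap below in NEJ723 lay outside the Kupffer cell list. Cd209f, a C-type lectin, was at 134, 28.4, 0 and 44.97 CPM, and the eosinophil chemokine Ccl24 at 502, 407, 39.7 and 866. C6, a late complement component, was at 194, 260.1, 20.3 and 245, the formyl peptide receptor Fpr1 at 51.7, 56.8, 5.08 and 56.6, and Pcolce2 at 186, 147, 9.69 and 159. Treml4 (117, 104, 10.2 and 134) and Cd300ld (148, 194, 21.2 and 142) had the same order of NEJ723 to the rest. Cd36, a fatty acid transporter, and the lipoprotein lipase Lpl were also at least 2-fold lower there, Cd36 with 460.3, 251, 83.5 and 256 CPM and Lpl with 955, 1074, 369 and 927.

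In the opposite direction, 18 genes were at least 2-fold higher in NEJ723 than in each other tumor (0.512% of genes; 51 without NEJ709), and 3 of 11 genes of lipid-associated macrophages were among them. Of the same list, Lpl and Cd36 were at least 2-fold lower, and its median log2 ratio of NEJ723 to the other 3 tumors was 0.14. Spp1, osteopontin, was at 132, 70.9, 1685 and 15.5 CPM, and at 0, 0.567 and 0.591 in the other libraries. In NEJ634, NEJ709 and NEJ687 this was not above the ambient level of 151, 99.3 and 17.3, which rests on 13, 33 and 17 UMIs. Fabp5, a fatty acid binding protein, was at 598, 610.2, 2227 and 536 CPM (ambient 417, 256, 524 and 365), Gpnmb, a lysosomal glycoprotein, at 189, 142, 516 and 94.4, and Lgals1, galectin 1, at 521, 459, 1646 and 548. Arg1, the arginase of alternatively activated macrophages, was at 26.8, 0, 168 and 6.66 CPM, which in NEJ634 and NEJ687 was below the ambient 185 and 102. Hes1, a Notch target, was at 123, 142, 444 and 68.8, and at 399 to 711 in the other libraries.

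The remaining genes of this group with the widest gaps were low elsewhere. Itgad, an integrin chain, was at 13.7, 4.73, 95.1 and 19.99 CPM, Cbr2 at 14.4, 18.9, 100.2 and 1.67, Ccn3 at 0.654, 0, 52.6 and 0, Tnfsf12 at 13.1, 9.46, 56.3 and 16.7, Rnase4 at 33.3, 70.9, 223 and 12.2 and Tspan13 at 54.3, 37.8, 155 and 66.1. Among the genes of lipid-associated macrophages, Mmp12 alone was at least 2-fold higher in NEJ634 than in each other tumor (background 0.199%), and the count was 0 in NEJ709 (2.42%) and in NEJ687 (0.0854%).

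Across the 4 tumors, among genes at 200 CPM or more in at least 1 of them, the range was widest for Spp1 (highest over lowest 108) and Marco (62.9). Below that limit Cd209f (96.8) and Ccn3 (80.5), each with 0 UMIs in a tumor taken as 3, had a wider range than Marco. Spata7 was at 26.8, 1116, 73.8 and 31.6 CPM (41.6) and Txndc16 at 11.1, 322, 16.6 and 11.1 (29.0), both highest in NEJ709, the library of 27 macrophages. Syngr1 was at 28.1, 137, 276 and 7.77 (35.5), and Cx3cr1, the fractalkine receptor of monocytes and their progeny, at 30.7, 378, 229 and 11.7 (32.5), against 10.5 to 23.2 in the other libraries. Both were high in NEJ709 and NEJ723 and low in NEJ634 and NEJ687. Fabp4 was at 243, 18.9, 193 and 425 (22.5), with ambient levels of 614, 90.2, 146 and 212.

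The tumors also shared differences from the other libraries. In 13 of 4228 genes (0.307%) each tumor was at least 2-fold above every other library and stood at 2 times its own ambient level or more, and 20 genes did so without NEJ634 and 20 without NEJ723. Cd63, a tetraspanin of late endosomes, was at 447, 482, 1061 and 475 CPM, and at 13.5, 18.998 and 10.9 in the other libraries, so that its lowest tumor was 23.5 times the highest of the others. Gpnmb had 0 UMIs in the macrophages of all 3 other libraries, with upper limits of 7.12, 1.05 and 1.09 CPM. Trem2 was at 275 (249 to 302), 549 (453 to 658), 939.7 (899 to 981) and 222 (201 to 245) CPM, against 44.4, 59.0 and 37.5.

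Vcam1, the adhesion molecule by which macrophages hold erythroblasts, was even across the tumors at the limit of 1% C1q. It was at 1511, 1726, 1605 and 1733 CPM, against 628, 259 and 279. At 2% C1q, with 6, 2, 22 and 81 cells, it was uneven, at 2170, 1026, 3346 and 1820 CPM. Il18, an inflammasome cytokine, was at 343, 317, 356 and 557 (others 95.1 to 125), and the myeloid chemokine Ccl9 at 145, 147, 83.1 and 189.9 (5.39 to 23.2). Further genes were the scavenger receptor Colec12 (53.5 to 270.1 in the tumors and 9.92 to 21.2 in the others), Sh3pxd2b (27.5 to 70.9 and 2.84 to 11.6), Prxl2b (128 to 244 and 34.8 to 61.0), Ms4a7 (153 to 469 and 46.5 to 73.4), the C-type lectin Clec4n (360.0 to 541 and 133 to 174) and Bcl2a1b.

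**Figure D2:**
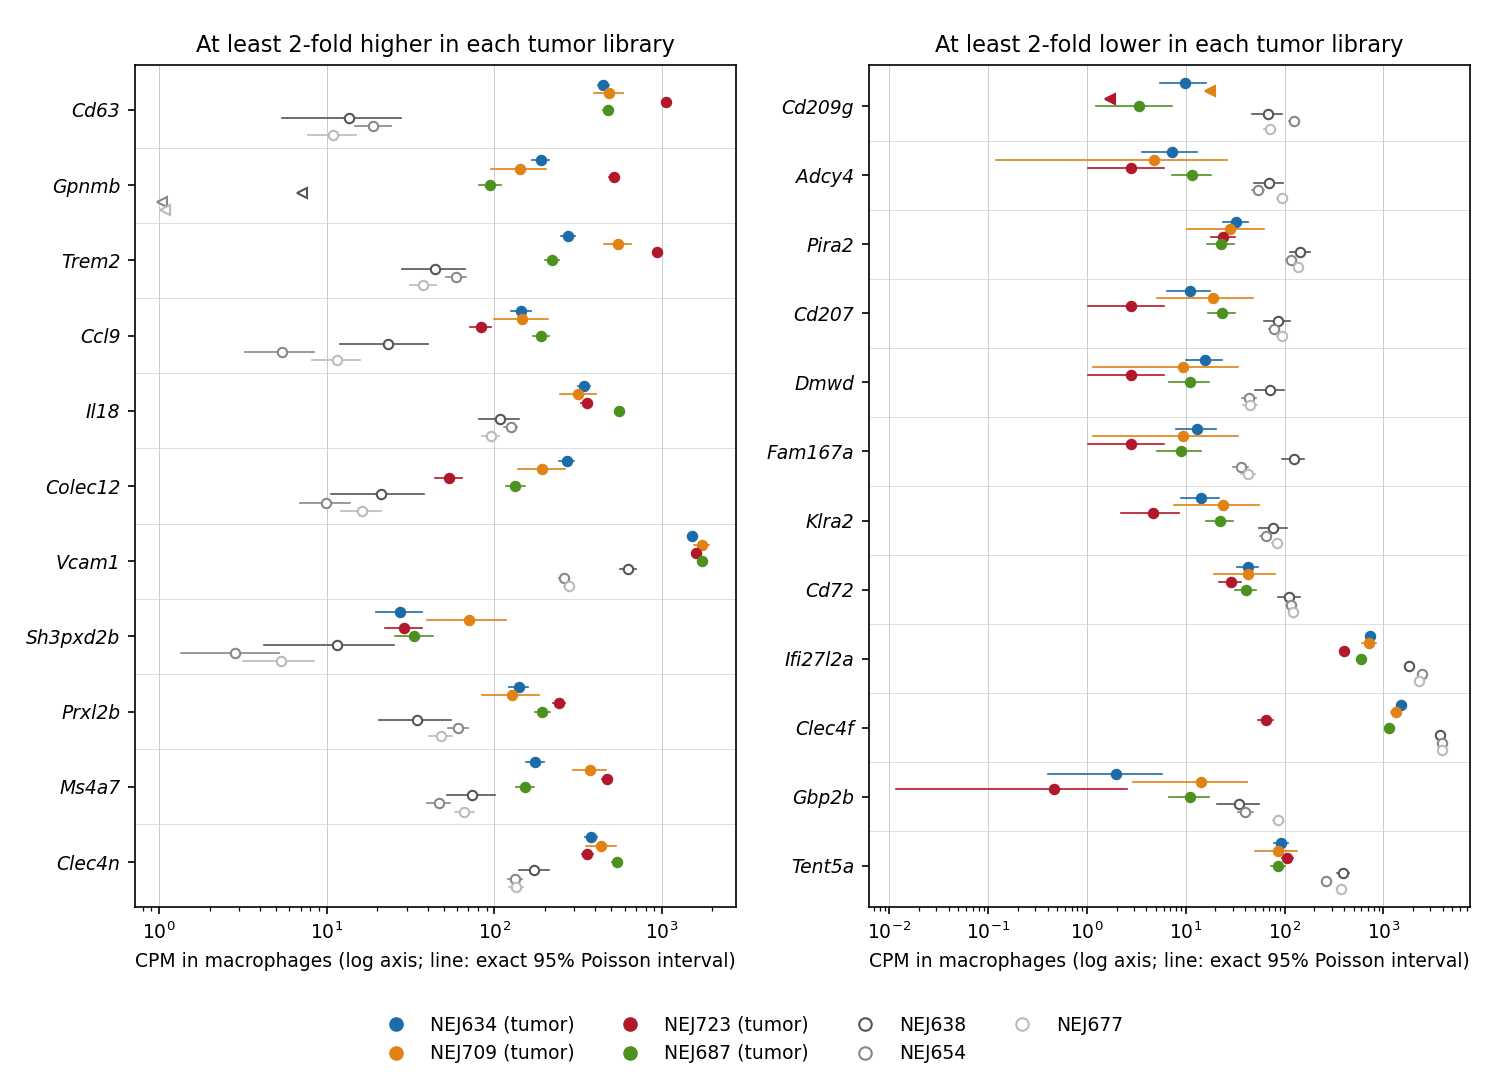
Genes with the widest gap in each direction between the macrophages of the 4 tumors (filled) and of the other libraries (open), in CPM on a log axis, with exact 95% Poisson intervals. Triangles stand at the upper limit of a library with 0 UMIs. Cd63 shows the widest gap among the higher genes, 447 to 1061 CPM in the tumors against 10.9 to 18.998.

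In the other direction stood 19 genes (0.449%), or 37 without NEJ709. They included Clec4f and Folr2, the lectins Cd207 (2.77 to 23.3 against 78.0 to 94.2 CPM) and Cd209g (0 to 9.81 against 67.6 to 124), the inhibitory receptor Cd72 (28.6 to 42.6 against 112 to 122), Pira2 (22.8 to 32.0 against 115 to 145) and Klra2 (4.62 to 23.6 against 64.4 to 83.3). Ifi27l2a, an interferon-induced gene, was at 734, 714, 399 and 597 CPM, against 1815, 2463 and 2309. In T cells Ifi27l2a was also lower in the tumors, at 324, 273, 107 and 287 CPM against 497, 1236 and 971. Gbp2b, an interferon-induced GTPase, was at 0.462 to 14.2 CPM in the macrophages against 34.8 to 86.8. Tent5a (85.1 to 107 against 261 to 390.0), Dmwd (2.77 to 15.7 against 43.7 to 71.4), Fam167a (2.77 to 13.1 against 36.3 to 124) and Adcy4 (2.77 to 11.7 against 54.2 to 93.6) completed the 12 with the widest gap. Id1, Klf2, Siglece, Pygb, Pilrb1 and Plxna4os1 made up the rest. The endothelial sums given above were lower in the tumors too.

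The following counts of list members above or below every other library in all 4 tumors stand against 9.15% of all genes above and 16.3% below. Among 11 genes of lipid-associated macrophages, 7 were above and 0 below, with a median log2 ratio of tumors to others of 1.92, against -0.06 over all genes. Lgals3, galectin 3, was at 1673, 1012, 2935 and 2226 CPM (others 411 to 659). Genes of other lineages stood the same way, with 4 of 6 erythroid genes above (median 3.34) and 4 of 10 neutrophil genes (median 1.70), and their part was not tested. In each tumor the sums over both lists were below their ambient sums. Among 22 lysosomal genes, 8 were above and 1 below (all genes 9.15% and 16.3%), with a median of 0.43. The protease cathepsin D, Ctsd, was at 5185, 3751, 4229 and 4207 (1676 to 2054), cathepsin B, Ctsb, at 7286, 5737, 5763 and 6509.9 (4016 to 5283), and Psap, the precursor of the saposins, at 3132, 3415, 3942 and 3338 (1383 to 2105). Acp5, an acid phosphatase, varied most of this list, at 677, 511, 279 and 598. Ctsd is also on the list of lipid-associated macrophages, whose 12 genes summed to 10379, 7956, 13769 and 9287 CPM.

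Lipid handling genes had a median of 0.61, with 3 of 16 above and 0 below (all genes 9.15% and 16.3%). Apoe, an apolipoprotein that macrophages secrete, was at 18903, 33128, 40412 and 29806 CPM against 13898.5 to 21599, and NEJ634 overlapped the other libraries. Apoc1 was at 4411, 3514, 814 and 3882, lowest in NEJ723, and Npc2, which carries cholesterol out of lysosomes, at 926, 1050.0, 1186 and 1106. Ftl1, the ferritin light chain, was at 10585, 10363, 17650.3 and 17077.5 CPM against 6665 to 9356, and Fth1, the heavy chain, at 11524, 7407, 11089.8 and 13152 against 4982 to 6724, with ambient levels of 3261 to 5372 and 4673 to 6977. Hmox1, which breaks down heme, overlapped the other libraries (988, 1684, 1062.5 and 1563 against 599.5 to 2668). Hamp, hepcidin, was at 67.4, 4.73, 8.31 and 11.7, below its ambient level in each tumor (301, 72.2, 72.8 and 128).

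Interferon genes lay on the other side. Of 16 tested, 9 were below and 0 above every other library in all 4 tumors (all genes 16.3% and 9.15%), with a median log2 ratio of -1.03. The list summed to 2542, 2876, 1669 and 2258 CPM in the macrophages, against 4480, 5966 and 5507. T cells stood the same way, at 969, 964, 439 and 915 CPM against 1019, 2157 and 1800. The difference was thus not confined to macrophages, and its source was not tested. Bst2, tetherin, was at 587, 587, 423 and 535 CPM against 699 to 1168, and Irf7, an interferon regulatory factor, at 182, 255, 62.3 and 169 against 286 to 545. Cxcl10 (261, 99.3, 181 and 259.8) and Gbp2 (41.2, 89.9, 10.2 and 62.7) overlapped the other libraries. Among 21 transcription factors, 9 were below and 1 above (all genes 16.3% and 9.15%), with a median of -0.68. Id3 was at 649, 402, 149.5 and 659.5 against 1050.4 to 1750.1, Klf2 at 150.4, 66.2, 102 and 147 against 349 to 747, and Id1 at 100.05, 94.6, 32.8 and 101 against 241 to 294. Id2 (656, 875, 540.0 and 769) and Cebpb (687, 520.3, 636 and 788) overlapped the others, and Sall1 had at most 1.31 CPM. Of 13 complement genes 6 were below and 0 above (all genes 16.3% and 9.15%), and C1s1 was near 0 in the tumors (0 to 1.11). The 13 include the C1q genes, which chose the cells and were neither above nor below, so this count is a description only.

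In the classical activation list 0 of 7 genes were above and 1 below every other library, and in the alternative list 1 and 1 of 6 (all genes 9.15% above and 16.3% below). Nos2, the inducible nitric oxide synthase, and Ido1, which breaks down tryptophan, had 0 UMIs in the macrophages of all 7 libraries, which in the tumors allows up to 2.41, 17.4, 1.70 and 2.05 CPM. Il1b was at 360.3, 322, 218 and 577 CPM (ambient 429, 256, 58.2 and 356) and the costimulator Cd86 at 177, 213, 152 and 228. Mrc1, the mannose receptor, was at 460.3, 610.2, 436 and 465 and Il4ra at 37.9, 52.0, 72.9 and 34.4. Of the efferocytosis genes, the receptors Lrp1 and Axl were at 503, 601, 578 and 477 and at 443, 497, 324 and 461, and Tyro3 at 0 to 0.654.

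Among chemokines, 3 of 16 were above and 0 below (all genes 9.15% and 16.3%). Cxcl2, which draws neutrophils, was at 1568, 1542, 682 and 2659.8 CPM, Ccl6 at 1161, 795, 749 and 1555 (others 404 to 712), Cxcl9 at 8.50, 52.0, 1.38 and 11.1 and Pf4 at 298, 1159, 1849 and 304. Igf1, a growth factor, was at 563, 577, 417 and 646, close to the other libraries (402 to 626), and Tnfsf13b at 0 to 4.62. Emp1 was at 11.1, 37.8, 46.6 and 3.33. Of the matrix and growth genes, Sdc3 was at 837, 615, 301 and 770.0 (1161 to 1909.7) and Timp2, an inhibitor of metalloproteinases, at 257, 265, 426 and 241 (169.9 to 225). Of the checkpoint genes, Sirpa, the receptor for the signal Cd47, was at 689, 771, 669 and 797 (419 to 541), Siglece at 5.08 to 47.3 (110.0 to 284), the ectonucleotidase Entpd1 at 194, 194, 125 and 185, and Nt5e at 0 to 1.31.

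Genes of antigen presentation and of monocytes varied among the tumors. Cd74, the invariant chain, was at 170.0, 686, 1047 and 1468 CPM, and the MHC class II chains H2-Aa, H2-Ab1 and H2-Eb1 at 43.2, 416, 310.2 and 222, at 46.4, 383, 336 and 323 and at 41.2, 426, 291 and 154. In NEJ634 these 4 were below the ambient levels of 661, 139, 255 and 162, and all of them were at least 2-fold lower there than in each other tumor. Only H2-Aa passed the call, which also asked for 2 times ambient or more in the other tumors. With macrophages thinned to 1000 base UMIs, the 8 class II genes gave a median of 0, 0, 0 and 2 UMIs per cell. Under 5 UMIs were found in 374 of 379, 22 of 23, 201 of 225 and 222 of 269 cells, so the sums lean on part of the cells. By the mean of the cells, Cd74 and H2-Aa in NEJ709 moved by over 1.5 times. The 11 monocyte genes summed to 558, 743, 674 and 228 CPM, below the ambient sums of 1148, 2899, 1368 and 1105. Of 6 tested, 2 were above and 1 below every other library in all 4 tumors (all genes 9.15% and 16.3%), with a median log2 ratio of 2.85. F13a1, a coagulation factor chain found in monocyte progeny, was at 25.5, 137, 195 and 2.78 (ambient 46.4, 78.2, 58.2 and 34.6), and Plac8 at 235, 94.6, 11.1 and 134 (ambient 394, 755, 291 and 335). Ly6c2, the marker of classical monocytes, was at 26.2, 4.73, 5.08 and 3.89, below its ambient level in each tumor (58.0, 358, 175 and 102).

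The summed levels could come from all cells or from some, so macrophages with at least 1000 base UMIs were thinned to that depth. The Kupffer cell genes then gave a median of 15, 14, 2 and 19 UMIs per cell in the tumors, 19, 19 and 19 in the other libraries, and 0 in T cells of every library. Genes of lipid-associated macrophages gave a median of 9, 8, 10 and 9 in the tumors and 4, 3 and 3 in the others. Ctsd is among these genes, so the medians do not stand for Trem2, Gpnmb or Spp1 alone. Fewer than 5 UMIs of Kupffer cell genes were found in 18 of 379 macrophages of NEJ634 (4.75%, 2.84 to 7.402%), 5 of 23 macrophages of NEJ709 (21.7%, 7.46 to 43.7%), 161 of 225 macrophages of NEJ723 (71.6%, 65.2 to 77.4%) and 4 of 269 macrophages of NEJ687 (1.49%, 0.407 to 3.76%). In the other libraries this share was 0.847 to 2.07%. The limit of 5 was set after the values were seen, and 32, 3, 63 and 13 cells held 3 to 6 UMIs, so that it marks a range and not a cell type.

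**Figure D3:**
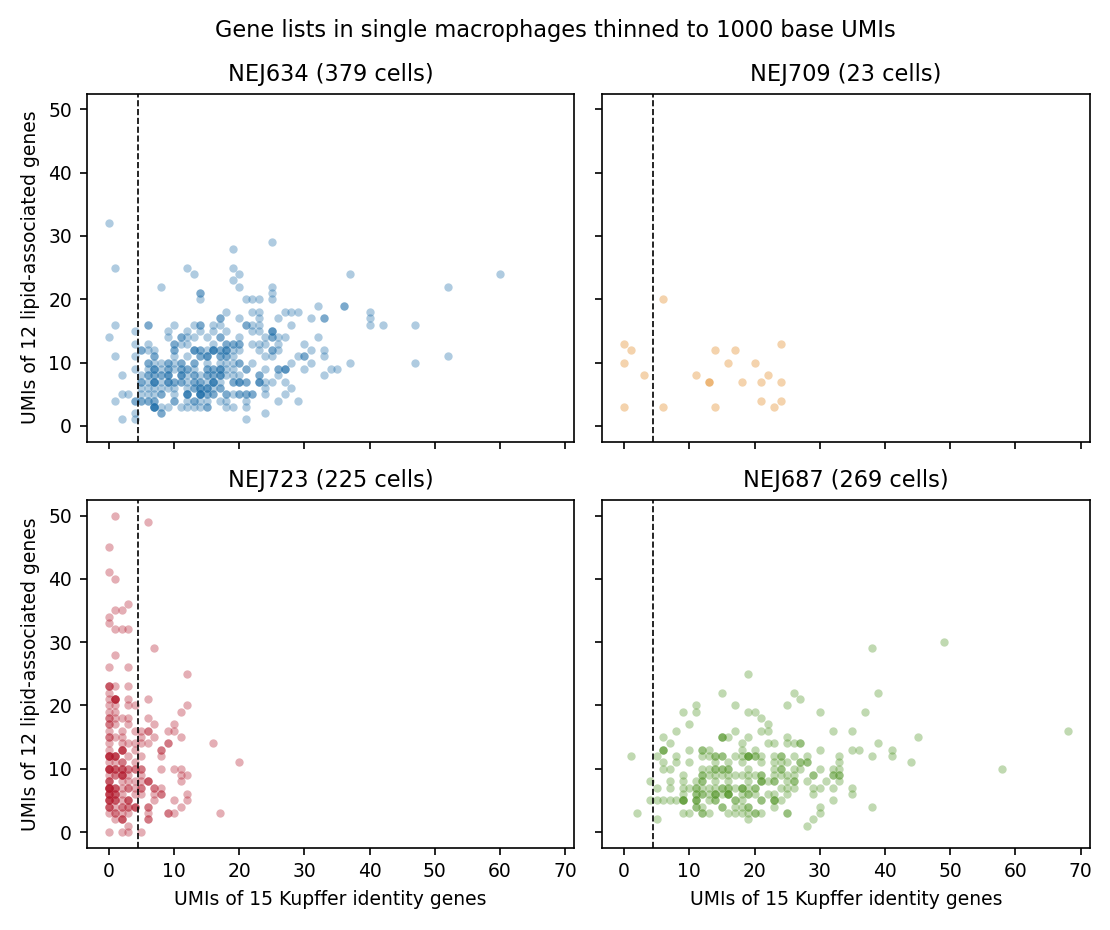
Each point is a macrophage thinned to 1000 base UMIs, placed by its UMIs of the 15 Kupffer cell genes (horizontal) and of the 12 genes of lipid-associated macrophages (vertical), in the 4 tumors. The vertical list includes Ctsd. In NEJ723, 161 of 225 cells have fewer than 5 Kupffer cell UMIs, and in NEJ687 4 of 269.

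Cells with a UMI gave a similar order for Marco. After thinning, Marco was seen in 85.8%, 60.9%, 2.67% and 82.9% of the macrophages, and in 15.6%, 1.67%, 0.290% and 1.37% of the T cells. With all UMIs kept, it was seen in 90.6%, 66.7%, 12.8% and 91.2% of macrophages and 27.7%, 10%, 0.290% and 4.10% of T cells, whose median depth was 2479, 2391, 8632 and 2819 and 3174.5, 8252, 5533 and 4097 UMIs. Trem2 was seen in 18.7%, 30.4%, 46.2% and 16.7% of thinned macrophages and 2.22%, 0%, 0.580% and 0.341% of thinned T cells, and unthinned in 35.7%, 59.3%, 72.6% and 43.5% and 2.92%, 3.33%, 1.74% and 0.683%. Vcam1 was seen in 67.0%, 65.2%, 51.6% and 64.3% of thinned macrophages and 4.44%, 5%, 0.580% and 0.683% of thinned T cells, and unthinned in 86.2%, 81.5%, 67.1% and 86.6% and 11.7%, 11.7%, 6.09% and 2.73%.

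Macrophages with fewer than 5 Kupffer cell UMIs carried more of several other genes in each of the 3 tumors that held at least 5 such cells. Trem2 was at 499.5 against 262 CPM in cells with 5 or more in NEJ634, 1247 against 189.6 in NEJ709 and 1146 against 374 in NEJ723. Spp1 was at 1403 against 59.1, 213 against 0 and 1913 against 1076, and Cx3cr1 at 214 against 20.4, 1063 against 36.5 and 299.7 against 33.3. Gpnmb, Fabp5, F13a1, Pf4 and Lyz2 were higher in the same cells of all 3 tumors, with F13a1 at 274 against 11.3, 411 against 0 and 252 against 40.4. Vcam1 went the other way, at 975 against 1542, 269 against 2495 and 969 against 3352, as did Csf1r, at 309 against 723, 553 against 1021 and 443 against 530.0, with overlapping intervals in NEJ723. Cd74 differed in direction, at 428 against 155, 198 against 956 and 1332 against 265, and C1qa was at 3889 against 4028, 4280.4 against 3647 and 4503 against 5455. The median depth was 2155 against 2600 UMIs in NEJ634, 17087 against 2552.5 in NEJ709 and 9260 against 5941 in NEJ723, and the part of depth was not tested.

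**Figure D4:**
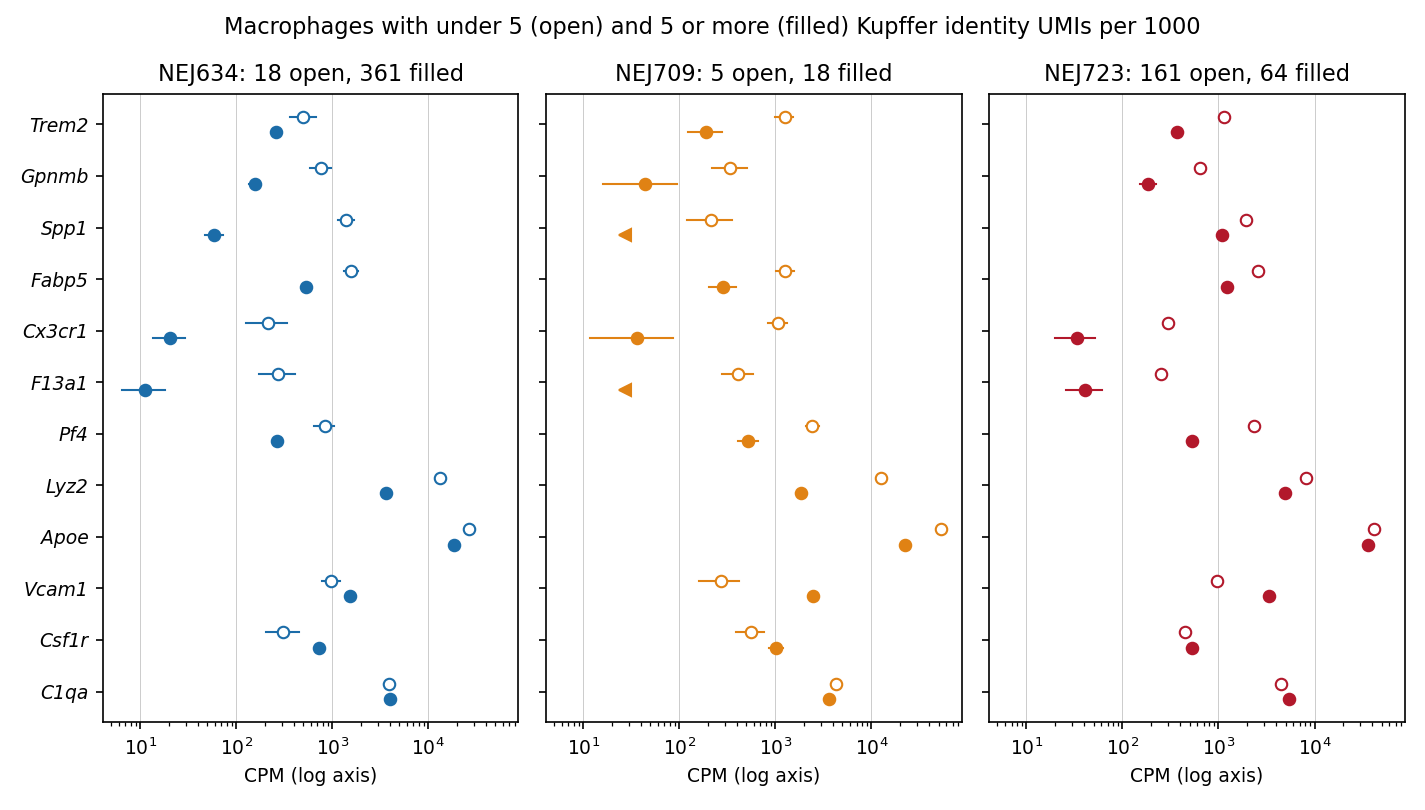
Levels of genes in macrophages with under 5 (open) and with 5 or more (filled) Kupffer cell UMIs per 1000, in CPM on a log axis with exact 95% Poisson intervals, in NEJ634, NEJ709 and NEJ723. Triangles stand at the upper limit for 0 UMIs. Trem2 is further right in the open points of all 3 tumors (in NEJ723 1146 against 374 CPM), and Vcam1 further left (969 against 3352).

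Spread between macrophages of the same tumor was measured as the variance beyond counting error over the squared mean, taking the lowest of the 4 tumors. Its median was 0.0226 over the 1007 genes at 100 CPM or more in each tumor. Genes below that limit in a tumor were not ranked, among them Cd163 (4.11), Mmp12 (2.91) and Gpnmb (1.75). Among the 1007 genes the chemokine Ccl4 led with 4.61, followed by Ccl2 (2.48), the stress cytokine Gdf15 (2.20) and the heat shock gene Hspa1a (1.52). Next came Atf3 (1.44), Il1b (1.40), Fabp5 (1.32), Id3 (1.31), Sdc4 (1.30) and the endotoxin coreceptor Cd14 (1.18). In NEJ634 Sdc4, Atf3, Il1b and Cd14 were at 148, 258, 360 and 399 CPM, not above ambient levels of 614, 290, 429 and 417. The rest of those named were above ambient there, Hspa1a only just (328 and 325), and the part of ambient RNA was not tested. Ccl4 was at 677, 388, 539 and 949.9 CPM and Gdf15 at 783, 175, 538 and 1179, while Hspa1a was at 328, 615, 612 and 223, below the other libraries (712 to 3744).

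At least 5 UMIs of 24 cell cycle genes per 1000 were found in 14.0%, 13.04%, 4.44% and 8.92% of the macrophages and in 43.0%, 21.7%, 11.01% and 18.4% of the T cells. The 95% intervals were apart in NEJ634 (10.7 to 17.9% and 37.0 to 49.1%) and in NEJ687 (5.80 to 12.98% and 14.2 to 23.4%), and overlapped in NEJ709 (2.78 to 33.6% and 12.1 to 34.2%) and NEJ723 (2.15 to 8.02% and 7.91 to 14.8%). In the other libraries the share was 12.4%, 2.91% and 1.62% of macrophages and 8.09%, 7.55% and 8.82% of T cells, and in NEJ638, where the macrophage share was the higher, the intervals overlapped (7.53 to 18.9% and 5.30 to 11.7%). The 24 genes summed to 2349, 884, 1192 and 1678 CPM in the macrophages, below the ambient sums of 3570.3, 5618, 4920.4 and 5458. In the cells with at least 5 such UMIs they summed to 6128 CPM in NEJ634, 7572 in NEJ723 and 6689 in NEJ687. Those cells were chosen by the same genes, and whether they cycle was not tested. Hmgb2 was at 548, 293, 256 and 263 CPM (ambient 1148, 1814, 1456 and 1210.2), Stmn1 at 277, 89.9, 145 and 265 (ambient 336, 436, 466 and 569), the replication clamp Pcna at 222, 114, 118 and 161 (ambient 243, 274, 262 and 278) and Mcm5 at 53.6, 4.73, 15.7 and 31.1 (ambient 34.8, 84.2, 58.2 and 94.7). Mki67 was at 179.8, 70.9, 55.8 and 99.9, below its ambient level in each tumor (325, 373, 320.3 and 444).

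Macrophages clear aged red cells, and haemoglobin RNA was set against that in T cells. It made up 2.33%, 0.899%, 3.30% and 2.995% of all macrophage UMIs and 2.61%, 6.08%, 5.46% and 2.86% of T cell UMIs, a ratio of 0.893, 0.148, 0.605 and 1.05. Without barcodes over 20% haemoglobin the ratio was 1.01, 0.2499, 1.07 and 1.94, so that NEJ634 and NEJ723 turned to above 1. By the median of the cells the share was 1.59%, 0.822%, 0.391% and 0.605% in macrophages and 0.740%, 0.349%, 0.440% and 0.366% in T cells, so that the order turned in NEJ634 and NEJ709. A total of 9, 2, 17 and 10 macrophages held over 20% haemoglobin. The 14 other erythroid genes summed to 518, 189, 398 and 610.1 CPM in macrophages and to 889, 1141, 1172 and 951 in T cells, lower in the macrophages of all 4 tumors.

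**Figure D5:**
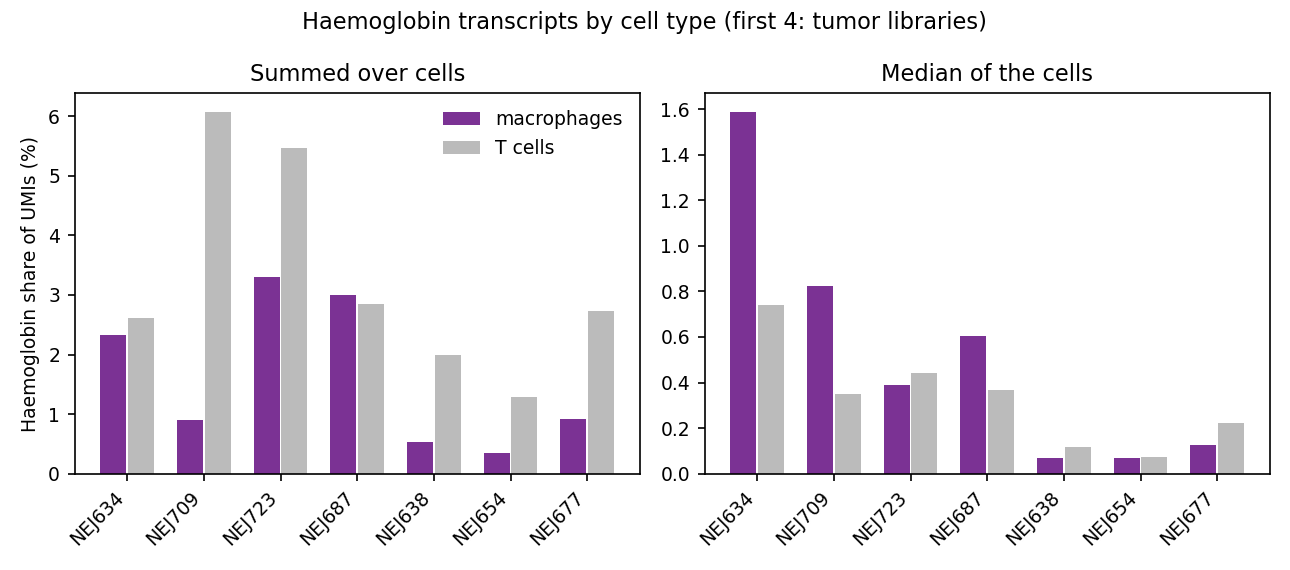
Haemoglobin share of all UMIs, in percent, in macrophages and T cells of each library, summed over cells and as the median of the cells. Among the tumors, the macrophage bar is above the T cell bar in NEJ687 for the sums (2.995% and 2.86%), and in NEJ634, NEJ709 and NEJ687 for the medians.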

How the data were processed

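Per the file headers the matrices came from Cell Ranger 4, while the submitters' processing notes name Cell Ranger 6.0. The genome build is not given in the sources used here. What the authors deposited were UMI counts per gene and barcode for 32285 genes, neither normalized nor filtered for cells. Totals ran from 40214395 to 132485391 UMIs per library. Counts were summed over the macrophages of each library and scaled to 1000000 base UMIs (CPM), with exact Poisson intervals. Shares have Clopper-Pearson intervals. Both are at 95%. Ambient RNA came from barcodes of 10 to 100 UMIs that did not pass in another library. Those used numbered 8153, 18657, 4369 and 63346 in NEJ634, NEJ709, NEJ723 and NEJ687, with 5694, 10387, 19428 and 11346 left out. Ambient levels are given without intervals. T cells held at least 5 UMIs of 6 T cell receptor and CD3 genes and under 10 C1q UMIs. Neutrophils held at least 5% S100a8 and S100a9. No doublet caller was run: cells with 1% or more of lymphoid, endothelial, mesenchymal or megakaryocyte genes, or 5% of neutrophil genes, counted as possible doublets and were kept. Genes were compared between libraries at 50 CPM in at least 1 library, with 0 UMIs taken as 3. Genes counted as at least 2-fold apart also stood at 2 times ambient or more in each library of the higher side.

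The labels give no groups, so no p-value was computed. The members and gene lists were chosen with earlier results of these data known. Named genes were the markers, the 3 highest and the most variable of each list and the 12 with the widest gap in each direction. At 100 CPM or more in each tumor, the 15 with the highest ratio to other barcodes and the 10 with the largest spread between cells were named. At 200 CPM or more in 1 tumor, and 2 times ambient there, the 10 with the widest range were named. Other genes named were chosen after their values were seen. Of the genes with the widest gap, 1 is not reported here. The listed gene Mx1 was not found among the features. Promoters were matched by symbol. Scripts were tested on simulated data and run with Python 3.11.15, numpy 2.4.6, scipy 1.17.1, pandas 2.3.3 and matplotlib 3.10.9.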

Additional observations from a re-analysis of the deposited data

Results flagged for a closer look

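Barcodes of more than 500 and at most 1000 UMIs entered no comparison. With at most 20% mitochondrial UMIs they numbered 44194 in the 4 tumors, and 139 of these met the C1q rule, a signal outside the cells described. The 139 were split as 14, 3, 21 and 101 in NEJ634, NEJ709, NEJ723 and NEJ687. Marco was at 4906, 1062, 0 and 4451 CPM in them, and Cd5l at 5169, 1062, 1410 and 6409.9.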

How the results depend on the processing

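The rule found 629 macrophages at over 2000 UMIs, 2688 at 0.5% C1q and 111 at 2% C1q. Genes higher in all 4 tumors numbered 22 at a 1.5-fold gap, 4 at a 3-fold gap, 44 without the ambient limit, 2 at 2% C1q (sharing 1 with those reported), 20 without NEJ634 and 20 without NEJ723. Genes lower numbered 47 at a 1.5-fold gap, 4 at a 3-fold gap, 7 at 200 CPM, 80 without the ambient limit, 4 at 5 times ambient, 4 at 2% C1q and 37 without NEJ709. Genes higher in NEJ723 than in each other tumor numbered 28 by the mean of the cells (14 shared with the 18 reported) and 51 without NEJ709 (18 shared). Leaving out a tumor, and the settings for NEJ723 and for few Kupffer cell UMIs, were chosen after seeing the data.

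The haemoglobin ratio of macrophages to T cells in NEJ634, NEJ709, NEJ723 and NEJ687 was 2.15, 2.36, 0.887 and 1.65 by the median of the cells, 0.378, 0.0327, 0.831 and 0.743 against barcodes called neutrophils, 1.01, 0.2499, 1.07 and 1.94 without barcodes over 20% haemoglobin, and without possible doublets 0.871 in NEJ634 and 0.6198 in NEJ723. Macrophages with under 5 Kupffer cell UMIs made up 16.7%, 0%, 50% and 0% at 2% C1q, of 6, 2, 22 and 77 cells. At 2000 base UMIs and under 10 UMIs the share was 3.86%, 33.3%, 78.7% and 0.633%, of 233, 15, 188 and 158 cells. The cause was not tested.

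Of 116 levels of single genes, 14 moved by over 1.5 times by the mean of the cells (Spp1 in NEJ709, NEJ723 and NEJ687, Gpnmb in NEJ634 and NEJ723 and Cx3cr1 in NEJ634 and NEJ709 among them), 75 at 2% C1q (Marco in NEJ634, NEJ709 and NEJ723 among them), and 0 without possible doublets, at over 2000 UMIs or per all UMIs. With ambient RNA subtracted at a share estimated from Cd3, Cd79 and Camp genes, 29 moved, all in NEJ634, where that share was 72.0%. From Cd3 and Cd79 genes alone the shares were 22.3%, 11.6%, 32.5% and 8.99%, and 5 moved, Cd74 and H2-Aa in NEJ634 and Mki67 in NEJ709, NEJ723 and NEJ687. No paired analysis was possible because the labels give neither groups nor replicate numbers. With 27 macrophages in NEJ709, low genes were not resolved there.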
